A study of Rattus norvegicus with 42 samples.

Results

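Serotonin receptors of the hippocampus were examined in rat pups 72 h after a single injection of an anti-seizure drug. The group comprised the 10 receptor genes Htr1a, Htr1b, Htr1f, Htr2a, Htr2c, Htr3a, Htr4, Htr5b, Htr6 and Htr7, which were found by gene symbol, each as 1 transcript, among 15516 transcripts with estimated read counts. All 10 passed the filter on low counts, as did 13062 transcripts in all. The animals were male Sprague Dawley rats injected intraperitoneally on postnatal day 7, and their hippocampi were taken on postnatal day 10. Vehicle (VEH, saline) was given to 13 analysed pups, phenobarbital (PB, 75 mg/kg), a barbiturate that enhances GABA-A receptor currents, to 14, and levetiracetam (LEV, 200 mg/kg), a ligand of the synaptic vesicle protein SV2A, to 14. Each pup gave 1 library, and a further VEH animal that the labels mark as excluded was kept out of the main comparisons. No disease model or injury is named in the labels for any group.

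Serotonin is made by neurons of the brainstem raphe nuclei, whose axons reach the hippocampus and act there on a family of receptors. Most members are coupled to G proteins, and they are grouped by the protein they engage. Htr1 receptors lower cyclic AMP, Htr2 receptors raise inositol phosphates and calcium, and Htr4, Htr6 and Htr7 raise cyclic AMP, whereas Htr3a encodes the subunit of a ligand-gated cation channel. In the hippocampus Htr1a is known from pyramidal and granule cells, Htr3a marks a class of interneurons from the caudal ganglionic eminence, and Htr2c is known for its very high level in the epithelium of the choroid plexus, the tissue that makes cerebrospinal fluid and lies against the hippocampus.

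The libraries held between 9499492 and 14488134 counts, with a median of 11712468 for VEH, 11103898 for PB and 11338329 for LEV. The sample codes took 2 forms, a two-letter form for 18 animals (6 per group) and a one-letter form for 23 (7 VEH, 8 PB and 8 LEV), and every comparison was adjusted for this form as a batch. The labels also state that the pups came in 2 orders, but not whether the form of the code follows the order. The Y-linked transcript Eif2s3y, found in males, stood at 0.825 normalized counts in VEH animal 1 and at 731 to 1069 in the other 40 animals, although all pups were labelled male. Without VEH animal 1, 0 receptors were called in any of the 3 treatment comparisons, the same number as with it. The hippocampal markers were present in every library, with Prox1 of dentate granule cells at 496 to 1161 and Fibcd1 of CA1 pyramidal neurons at 1020 to 1766 normalized counts. In these bulk samples a lower count from fewer cells of a type and one from less RNA per cell cannot be told apart.

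The receptors covered a wide range of counts, all given below as normalized counts, that is, counts scaled to a common library size of 11370387. Because a longer transcript collects more reads, these counts rank transcripts by read support and not by level. Htr2c had the most reads, with a mean of 1588 ± 529 (SD, n = 41), more than 87.7% of all tested transcripts. Htr5b followed with 218 ± 29.8, Htr1a with 157 ± 24.8 and Htr1b with 95.1 ± 16.0. The remaining receptors had low counts, with 51.6 ± 10.6 for Htr7, 45.5 ± 9.74 for Htr3a, 38.1 ± 8.36 for Htr6, 32.7 ± 7.49 for Htr2a and 27.7 ± 7.64 for Htr4. Htr1f was close to the detection limit at 9.37 ± 3.93, with 2 to 16 reads per library, and 0.812% of tested transcripts had a lower mean. None of the 10 receptors was at 0 in any animal.

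Levels can be compared between genes only per length, which was done for the receptors whose coding sequence is known to lie in a single exon. Htr1a, the inhibitory receptor of pyramidal cell bodies and raphe neurons, stood at 124 ± 19.5 counts per kilobase (SD, n = 41) of its annotated span (rn6 chr2:36246628-36247897). Htr1b, an inhibitory receptor of axon terminals, stood at 81.9 ± 13.8 per kilobase (chr8:89129652-89130813), and Htr1f at 6.69 ± 2.80 per kilobase (chr11:1982113-1983514). The order was the same in every library. Htr1a was above Htr1b in 41 of 41 animals, at ratios from 1.04 to 3.90, and Htr1b was above Htr1f in 41 of 41. The other members have introns, and their spans were chr15:56666152-56732470 for Htr2a, chrX:118084890-118318041 for Htr2c, chr8:53211438-53223805 for Htr3a, chr18:57654290-57778915 for Htr4, chr13:37479758-37492681 for Htr5b, chr5:157503040-157518512 for Htr6 and chr1:254549214-254671597 for Htr7.

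The spread between animals differed among the receptors, and it was read against the spread that counting alone would give. Htr2c had a coefficient of variation of 33.3% over 41 animals, where counting alone would give 2.50%. Htr5b varied by 13.7% against 6.76%, Htr1a by 15.7% against 7.95% and Htr1b by 16.8% against 10.2%. The low receptors lay nearer to the counting limit, with 22.9% against 17.4% for Htr2a and 41.9% against 32.5% for Htr1f. Htr2c thus had the widest spread relative to counting.

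**Figure D1:**
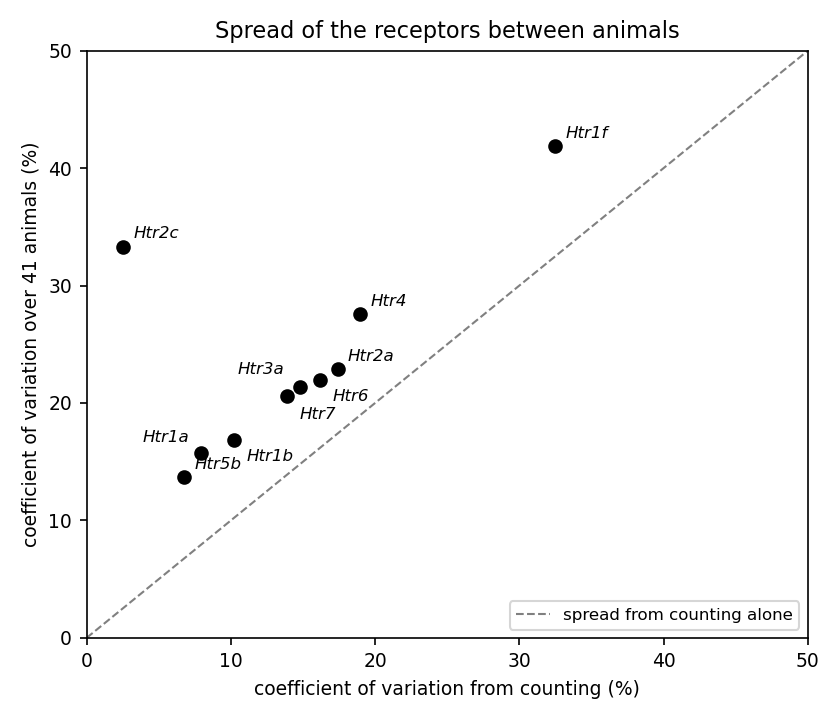
Coefficient of variation of each receptor's normalized count over 41 animals (vertical axis, %) against the coefficient that counting alone would give (horizontal axis, %). Each point is 1 receptor and the dashed line marks equal values. All 10 receptors lie above the line, and Htr2c lies farthest from it, at 33.3% against 2.50%.

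To determine whether PB or LEV altered serotonin receptor expression, the 3 groups were compared with the quasi-likelihood test of edgeR, and p-values were adjusted by the Benjamini-Hochberg method over all 13062 transcripts. A transcript was called at an adjusted p under 0.05 and a log2 fold change no smaller than 0.32 in size. No receptor was called in PB against VEH (0 of 10, where 0.605% of all tested transcripts were called), in LEV against VEH (0 of 10, background 0%) or in PB against LEV (0 of 10, background 0.582%). DESeq2 also called 0 of 10 in each comparison. At an unadjusted p under 0.05, 2 receptors passed in PB against VEH, both lower (20.2% of all transcripts passed, 10.4% lower). In LEV against VEH 1 passed (5.84% of all), and in PB against LEV 1 passed (19.6% of all). The median log2 fold change of the 10 receptors was -0.12 in PB against VEH, -0.02 in LEV against VEH and -0.05 in PB against LEV, beside medians over all transcripts between 0.00033 and 0.0046. The ranges of the groups overlapped for every receptor in all 3 comparisons, as they did for nearly all transcripts (0.00766% had ranges apart in PB against VEH, 0% in the other comparisons).

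**Figure D2:**
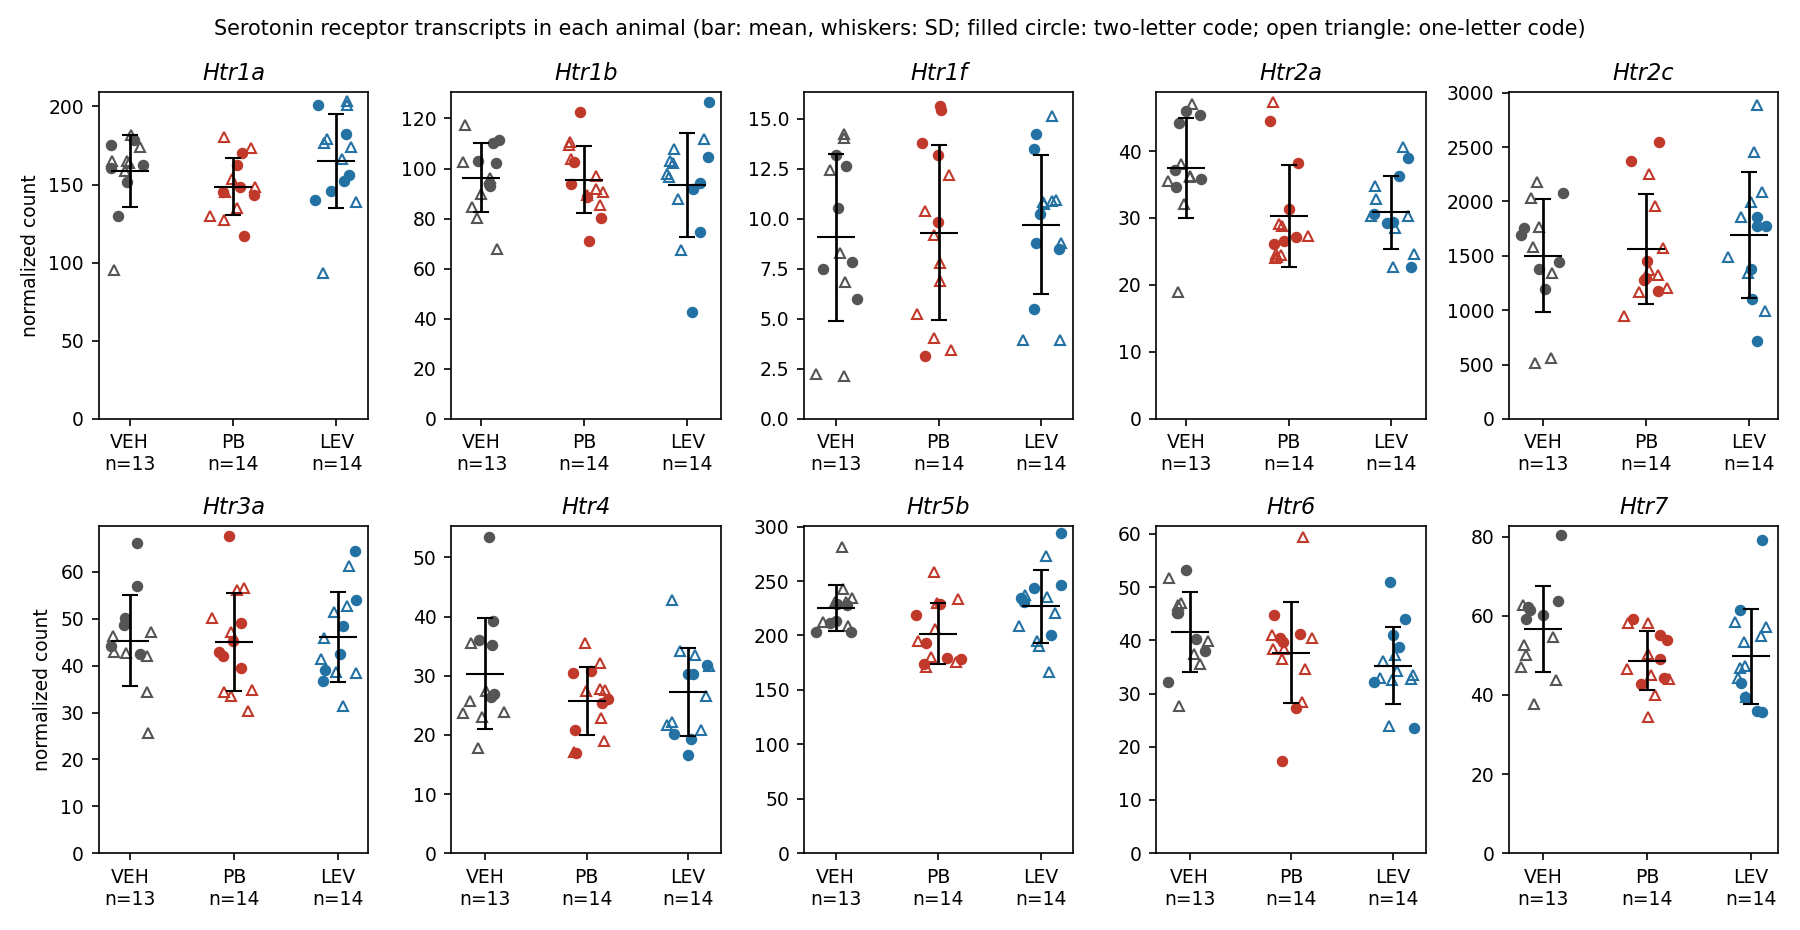
Normalized counts (vertical axes, linear and starting at 0) of the 10 receptors in each animal, by group. Filled circles are animals with two-letter codes, open triangles those with one-letter codes, and bars with whiskers give the group mean and SD. The groups overlap in each panel.

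Htr2a, the Gq-coupled receptor on which serotonergic hallucinogens act, had the largest log2 difference among the receptors after either drug. It ranged from 18.9 through a median of 36.3 to 47.1 normalized counts in VEH animals, from 23.99 through 27.2 to 47.4 in PB animals, and from 22.7 through 30.2 to 40.55 in LEV animals. Most treated animals lay in the lower part of the VEH range, with 11 of 14 PB and 12 of 14 LEV animals below the VEH median. None lay below the lowest VEH animal, but that bound rested on VEH animal 9 alone (18.9). The next lowest was VEH animal 13 at 32.1, above the medians of both drug groups. The group means were 37.5 ± 7.45 (SD, n = 13), 30.3 ± 7.62 (n = 14) and 30.8 ± 5.49 (n = 14). The fitted difference was a log2 fold change of -0.30 (SE 0.12) for PB, with an adjusted p of 0.129 by edgeR's quasi-likelihood test (Benjamini-Hochberg; unadjusted 0.0150), with 12 of 14 treated pups below the mean of the VEH pups of like code form. For LEV it was -0.28 (SE 0.12), with an adjusted p of 0.806 by the same edgeR test (unadjusted 0.0252) and 13 of 14 animals below. Both comparisons used the same VEH animals. PB and LEV animals differed by -0.03 (95% interval -0.27 to 0.22).

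Whether Htr2a was called in PB against VEH rested on single animals. VEH animal 9 had the lowest Htr2a of its group (18.9), and without it the log2 fold change was -0.36, with an adjusted p of 0.0488 by edgeR's test. PB animal 11 had the highest Htr2a of its group (47.4), and without it the log2 fold change was -0.38, with an adjusted p of 0.0464 by edgeR's test. Over the 41 fits that left out 1 animal each, the adjusted p of Htr2a in edgeR's test ran from 0.0464 to 0.209, and it was under 0.05 in these 2 fits. Over the alternatives that kept all the animals or all of a code form it ran from 0.120 to 0.448. VEH animal 9 was also the lowest of 13 VEH animals for Htr1a (95.5), Htr1b (67.7), Htr4 (17.8) and Htr7 (37.8), and the second lowest for Htr1f, Htr2c and Htr3a, but not for Htr5b (234) or Htr6 (46.6).

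Htr5b, a receptor that rodents express and that is lost as a coding gene in humans, was the other receptor with an unadjusted p under 0.05 after PB. It ran from 203 through a median of 228 to 281 normalized counts in VEH, from 171 through 194 to 258 in PB, and from 167 through 232 to 294 in LEV animals. Of the 14 PB animals, 8 lay below the lowest VEH animal, and 4 of the 14 LEV animals did so too. The means were 225 ± 21.0 (SD, n = 13) with vehicle, 202 ± 27.8 (n = 14) after PB and 227 ± 33.5 (n = 14) after LEV. PB against VEH gave a log2 fold change of -0.16 (SE 0.07), with an adjusted p of 0.184 by edgeR's quasi-likelihood test (unadjusted 0.0284), with 11 of 14 treated pups below. PB against LEV gave -0.17 (SE 0.07), with an adjusted p of 0.152 by the same edgeR test (unadjusted 0.0181), again with 11 of 14 below. LEV and VEH differed by 0.010 (95% interval -0.13 to 0.15). Htr5b had the narrowest errors of the 10 receptors.

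The receptors that raise cyclic AMP, Htr4, Htr6 and Htr7, had lower means in both drug groups than in VEH, and none was called. Htr7, known in the hippocampus and thalamus, had means of 56.6 ± 10.8 (SD, n = 13) with vehicle, 48.7 ± 7.52 (n = 14) after PB and 49.7 ± 12.0 (n = 14) after LEV. Its log2 fold change was -0.21 (95% interval -0.43 to 0.01) for PB and -0.18 (-0.39 to 0.04) for LEV. Htr6, a receptor found almost only in brain, had means of 41.5 ± 7.46 with vehicle, 37.7 ± 9.53 after PB and 35.3 ± 7.20 after LEV, with log2 fold changes of -0.14 (-0.39 to 0.12) and -0.23 (-0.49 to 0.02). Htr4, a receptor of pyramidal cells, had means of 30.3 ± 9.35, 25.7 ± 5.71 and 27.3 ± 7.39, with log2 fold changes of -0.23 (-0.54 to 0.07) and -0.15 (-0.45 to 0.16). The intervals of all 3 receptors reached below -0.32, the limit on the fold, for either drug, so a difference of that size could not be told from none at these counts.

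The inhibitory Htr1 receptors differed less. Htr1a had means of 159 ± 23.2 (SD, n = 13) with vehicle, 149 ± 18.4 (n = 14) after PB and 165 ± 30.2 (n = 14) after LEV, with a log2 fold change of -0.10 (95% interval -0.28 to 0.08) for PB and 0.05 (-0.13 to 0.23) for LEV. Htr1b had means of 96.3 ± 13.7, 95.5 ± 13.4 and 93.5 ± 20.8, with log2 fold changes of -0.012 (-0.22 to 0.19) and -0.043 (-0.25 to 0.16). For Htr1a, Htr1b, Htr3a and Htr5b the intervals of both drugs lay within that limit in both directions. Htr1f had too few reads to judge, with log2 fold changes of 0.03 (-0.48 to 0.54) for PB and 0.09 (-0.42 to 0.60) for LEV.

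Htr3a, the channel subunit of interneurons, had means of 45.4 ± 9.75 (SD, n = 13) with vehicle, 45.0 ± 10.5 (n = 14) after PB and 46.2 ± 9.66 (n = 14) after LEV. Its log2 fold change was -0.0016 (95% interval -0.24 to 0.24) for PB and 0.037 (-0.20 to 0.28) for LEV. A list of genes taken as markers of interneurons from the caudal ganglionic eminence was set beside it. Whether their counts came from these cells alone was not tested. Of 14 transcripts tested from that list, 1 was called in PB against VEH, and it was lower (0.605% of all transcripts were called). Tac3, which the authors count among GABA neuron genes, was placed on the thalamus and habenula list. It was also called lower, and the count given here leaves it out. The 14 transcripts came from 13 genes, so they are not 14 separate genes. At an unadjusted p under 0.05, 7 were lower and 1 was higher (20.2% of all passed, 10.4% lower), and the list median was -0.13 beside 0.0046 over all transcripts. Lamp5, a marker of neurogliaform cells, fell from 141 ± 39.5 to 96.1 ± 33.0 (log2 fold change -0.55, SE 0.15, adjusted p 0.0190 by edgeR's test). The interneuron peptide Vip was at 148 ± 27.1 in VEH and 118 ± 25.6 in PB animals and missed the threshold (log2 fold change -0.32, edgeR adjusted p 0.0519). The authors, using DESeq2 on batch-normalized data, report Vip among the GABA neuron genes that were lower after PB. Calb2, which encodes calretinin, was at 760 ± 148 and 948 ± 151 and passed the adjusted p (0.0432 by edgeR's test) but fell just short of the fold limit. The summed list ran from 11739 to 15764 with vehicle, 12998 to 14632 after PB and 12813 to 15175 after LEV. After LEV 0 of the 14 were called by edgeR (background 0%), with 1 at an unadjusted p under 0.05 (5.84% of all).

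**Figure D3:**
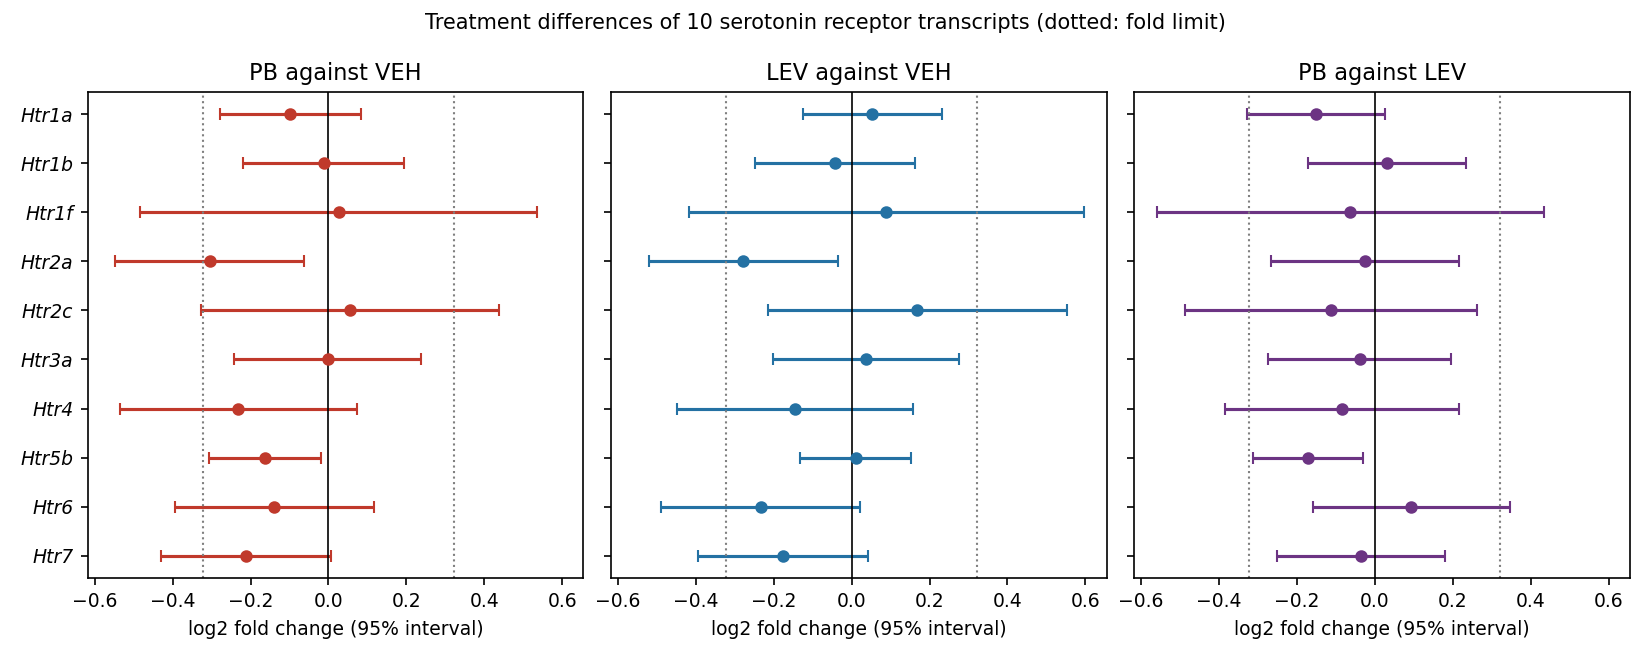
Log2 fold changes (horizontal axes) of the 10 receptors in the 3 comparisons. Points are fitted values, bars are 95% intervals and dotted lines mark the fold limit of 0.32 on the log2 scale. For Htr2a the interval lies below 0 for both drugs, from -0.55 to -0.06 for PB and from -0.52 to -0.04 for LEV. For Htr5b it lies below 0 in PB against VEH and in PB against LEV.

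The form of the sample code was then examined as a batch. No receptor differed between one-letter and two-letter codes (0 of 10, where 4.12% of all transcripts were called and 40.1% had an unadjusted p under 0.05), and 0 of the 10 had an unadjusted p under 0.05 in edgeR's test. The largest log2 differences were -0.31 (95% interval -0.72 to 0.10) for Htr1f and -0.19 (-0.38 to 0.00) for Htr3a. The effect of treatment was also compared between the code forms. No receptor passed an adjusted p under 0.05 by edgeR's test for PB (0 of 10, background 0.0689%) or for LEV (0 of 10, background 0.842%), while 1 and 2 receptors had an unadjusted p under 0.05 (11.1% and 12.8% of all transcripts).

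Htr4 had the largest difference between the code forms. Among animals with two-letter codes it ran from 26.4 through a median of 35.65 to 53.4 normalized counts in VEH, from 17.0 through 25.8 to 30.7 in PB, and from 16.6 through 25.2 to 31.7 in LEV animals. Among those with one-letter codes the medians were 23.9 with vehicle, 27.5 after PB and 29.1 after LEV. The VEH animals were thus the highest by median in the first set and the lowest in the second. The log2 fold change was -0.53 (95% interval -0.95 to -0.10) for PB and -0.55 (-0.97 to -0.13) for LEV in the first set, and 0.05 (-0.34 to 0.44) and 0.21 (-0.18 to 0.60) in the second. The difference between the sets was 0.58 (SE 0.28) for PB, with an adjusted p of 0.447 in edgeR's test (unadjusted 0.0482), and 0.76 (SE 0.28) for LEV, with an adjusted p of 0.217 in edgeR's test (unadjusted 0.0109). Without VEH animal 5, which had the highest Htr4 of the 41, these differences were 0.43 and 0.60.

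Htr7 and Htr5b showed smaller differences of this kind. For Htr7 the log2 fold change was -0.35 for PB and -0.39 for LEV in two-letter animals, and -0.09 and 0.01 in one-letter animals, where the VEH means were 64.5 ± 7.89 (SD, n = 6) and 49.8 ± 8.03 (n = 7). For Htr5b after LEV it was 0.17 and -0.12, a difference of -0.29 (SE 0.14) that missed the threshold (edgeR adjusted p 0.361, unadjusted 0.0419). Htr2a kept its direction in both sets, with -0.33 and -0.28 for PB and -0.38 and -0.19 for LEV. Htr5b after PB did so too, with -0.14 and -0.18.

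**Figure D4:**
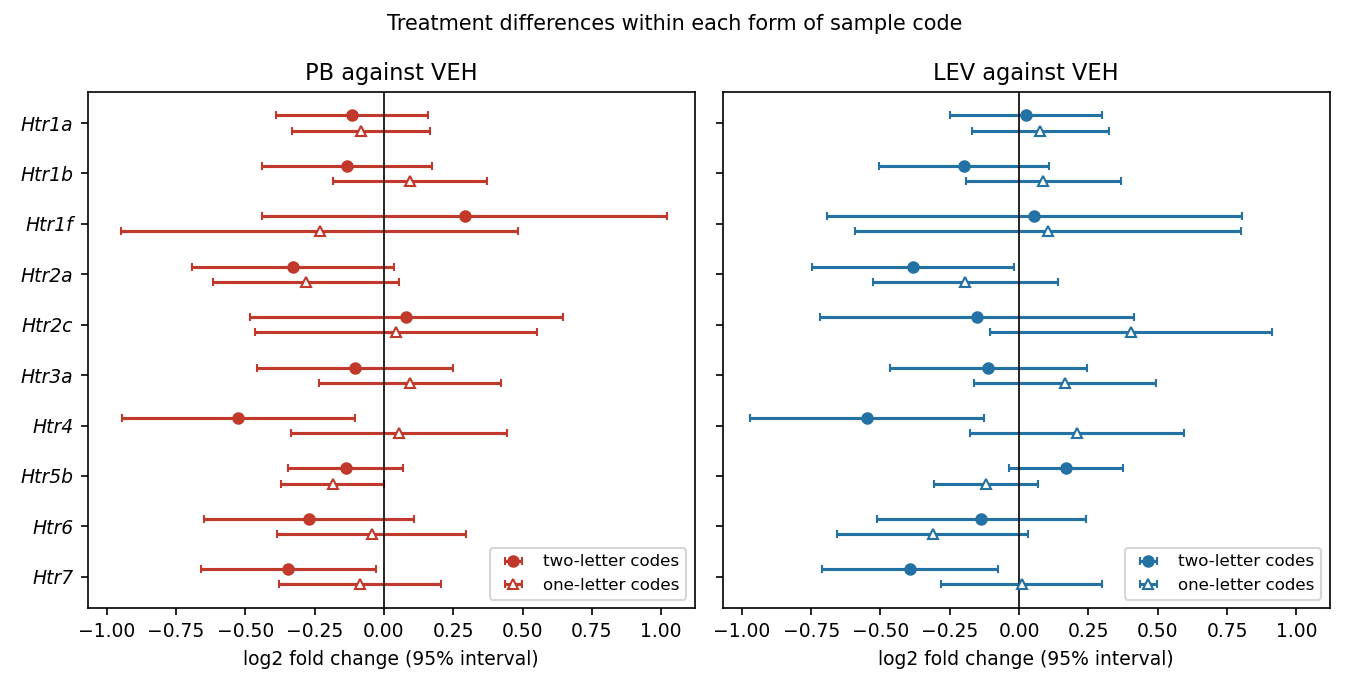
Log2 fold changes (horizontal axes) of the 10 receptors for PB and for LEV against VEH, fitted within animals of each code form. Filled circles are two-letter codes, open triangles one-letter codes, and bars are 95% intervals. The 2 estimates of Htr4 lie far apart for both drugs (-0.53 and 0.05 for PB, -0.55 and 0.21 for LEV), and those of Htr2a lie below 0 in each set.

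Since Htr2c is abundant in choroid plexus epithelium, its spread was set beside the choroid plexus transcripts in each library. Of 20 choroid plexus transcripts, 19 were tested and 0 were called in any treatment comparison, yet their levels varied widely between animals. Ttr, the transthyretin transcript that defines this epithelium, ran from 9.18 to 81130 normalized counts. The summed list ran from 306 to 55086 with vehicle, from 314 to 87010 after PB and from 263 to 64313 after LEV. A score was taken as the mean log2 CPM of the 19 transcripts (with a prior count of 2), and it ran without a break from -0.43 to 5.06, the largest gap being 10.5% of the range. Its mean was 1.75 ± 1.88 (SD, n = 13) with vehicle, 2.47 ± 1.93 (n = 14) after PB and 2.50 ± 2.09 (n = 14) after LEV. The list's median log2 fold change was 0.60 for PB and 0.67 for LEV against VEH, well within its spread between animals.

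Htr2c rose with the choroid plexus score. Its log2 change per unit of the score was 0.19 (SE 0.03), with an adjusted p of 2.06e-06 by edgeR's quasi-likelihood test with treatment and code form in the fit, and it was the only 1 of 10 receptors past the threshold (5.58% of all transcripts passed, 5.04% rising with the score). Htr2c was the only receptor for which a correlation with the score was computed. Across 41 animals, with both measures centred within treatment and code form, Pearson's r was 0.708 (p = 2e-05) and Spearman's rho was 0.773 (p = 1e-05) in a two-sided permutation test, the latter the smallest p that its 100000 resamples can give. Without the 2 animals farthest from the median score r was 0.681. Within two-letter codes r was 0.798 (n = 18) and within one-letter codes it was 0.668 (n = 23). Within PB animals r was 0.872 (n = 14) and within LEV animals 0.856 (n = 14), but within VEH animals it was 0.484 (n = 13, p = 0.109 by permutation test).

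Not all of the spread of Htr2c followed the score. VEH animals 9 and 13 had the lowest Htr2c of the 41, at 559 and 513 normalized counts, while other animals with scores as low were above them. The highest was LEV animal 8 at 2887. With the score as a covariate the log2 fold change of Htr2c changed from 0.06 to -0.10 (95% interval -0.37 to 0.17) for PB and from 0.17 to -0.00066 (-0.27 to 0.27) for LEV, and the difference was not called in either fit.

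No other receptor passed the threshold for the score. Htr5b had a slope of -0.04 (SE 0.01) with an adjusted p of 0.0617 in edgeR's test (unadjusted 0.00371), though it passed in 7 of the 41 fits that left out 1 animal each (without VEH animal 12 or 14, PB animal 2, 4, 5 or 11, or LEV animal 2). The remaining 8 slopes lay between -0.04 and 0.04, with adjusted p from 0.380 upward in edgeR's test. Among these were Htr2a at -0.04 (95% interval -0.09 to 0.01) and Htr7 at 0.04 (-0.01 to 0.09). With the score as a covariate Htr2a had a log2 fold change of -0.29 for PB and -0.26 for LEV against VEH. For Htr5b the difference in PB against VEH went from -0.16 to -0.13 (unadjusted p 0.0284 and 0.0501, adjusted p 0.246 with the score in edgeR's test). For Htr7 it went from -0.21 to -0.23 (unadjusted p 0.0569 and 0.0325, adjusted p 0.195 with the score in edgeR's test).

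**Figure D5:**
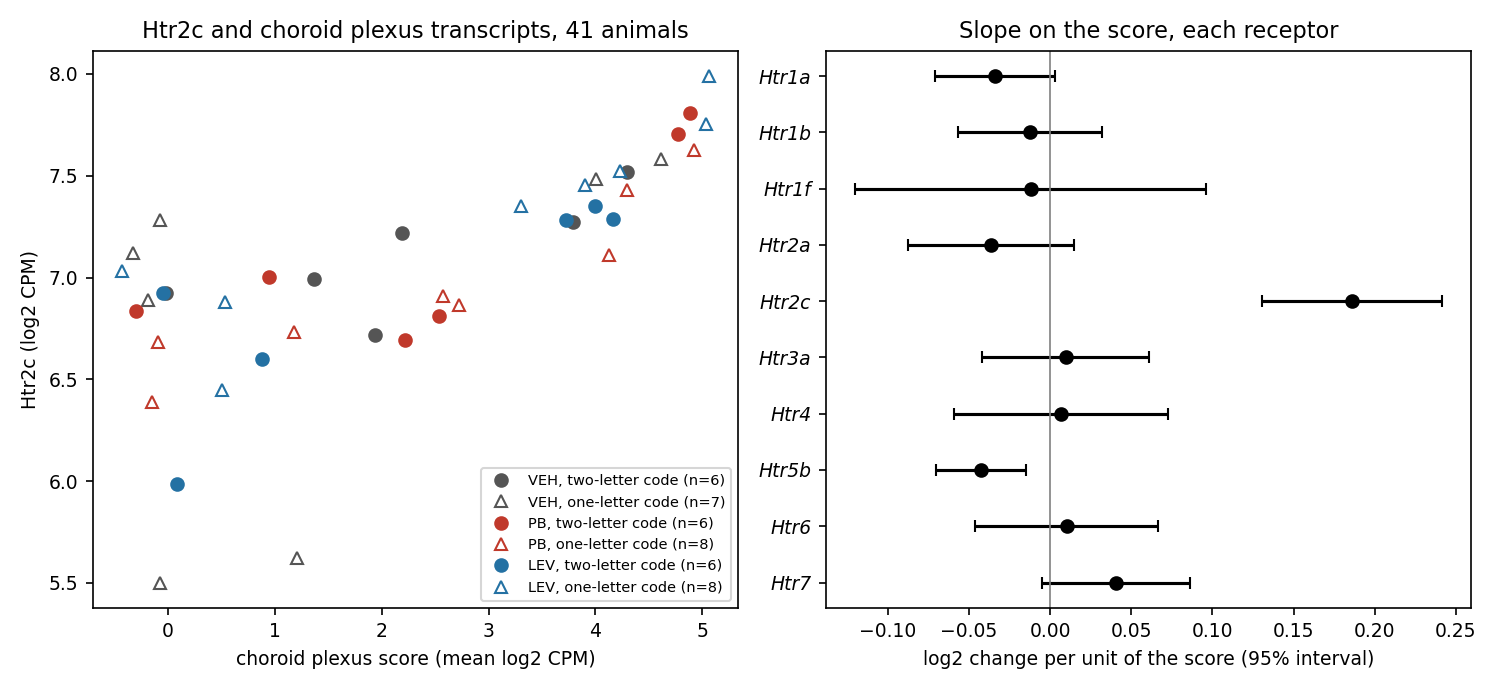
Left, Htr2c (log2 CPM) against the choroid plexus score (mean log2 CPM) in 41 animals, by group and code form. Right, log2 change of each receptor per unit of the score with its 95% interval. Htr2c rises with the score, at 0.19 per unit (SE 0.03), and the other 9 points lie between -0.04 and 0.04.

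The transcripts most like each receptor were ranked by Spearman's rho over 41 animals after centring within treatment and code form. The ranking is a description without a test, since all values share libraries and depth. Only the highest values among all transcripts are named for each receptor, so they are high by selection. How high such values run among unrelated transcripts was not computed, so the ranks alone do not show that a named gene varies with its receptor beyond chance. Htr2c was most like Stk39 (0.88), Tbc1d9 (0.87) and the tight junction gene Cldn1 (0.87). With the choroid plexus score also removed, the nearest were Slit2 (0.72), Tbc1d9 (0.71) and Fras1 (0.66). For Htr1a the nearest were B3gat1 (0.69), the potassium channel partner Dpp6 (0.65) and Kif3c (0.65). Htr5b was most like Desi1 (0.69), Rnf6 (0.66) and Btbd17 (0.64). The nearest to Htr3a were Il4r (0.60), Fgf11 (0.58) and C2cd2 (0.55), and those to Htr1b were Phf19 (0.55), the kainate receptor gene Grik2 (0.52) and Fam20c (0.52). Htr6 was nearest to Nckipsd (0.62), Strn4 (0.61) and Cdc42se1 (0.58), Htr7 to Fosl2 (0.60), Rftn1 (0.58) and Fzd1 (0.54), and Htr4 to Ndrg2 (0.60), Zfp652 (0.57) and the NMDA receptor gene Grin1 (0.55).

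Among pairs of receptors the highest rho was that of Htr1f and Htr2a, at 0.61. Htr2a ranked first of all transcripts for Htr1f, ahead of Map4k5 (0.59) and Erlin1 (0.56), and Htr1f ranked second for Htr2a, after Ttc9c (0.63) and ahead of Lars1 (0.56). The next pairs were Htr4 with Htr7 and Htr1a with Htr5b, both at 0.40, and the lowest was Htr2c with Htr5b at -0.40. Both Htr1f and Htr2a had low counts, so these values carry much counting error.

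Other genes of the serotonin system showed few differences. Of the other receptor genes listed, 3 were in the table and 1, Htr5a, passed the filter, at 82.4 ± 13.3 normalized counts (SD, n = 41) and with log2 fold changes of 0.01 for PB and 0.05 for LEV. Htr1d averaged 1.57 normalized counts and was at 0 in 13 of 41 animals, and Htr2b averaged 1.05 and was at 0 in 18. Of 13 transcripts for serotonin synthesis, transport and breakdown, 11 were tested and 0 were called in any comparison by edgeR. At an unadjusted p under 0.05, 1 of 11 was lower in PB against VEH (20.2% of all transcripts passed, 10.4% lower). In LEV against VEH 0 passed (5.84% of all), and in PB against LEV 4 passed, 3 lower and 1 higher (19.6% of all). The 11 include more than 1 transcript of Ddc, between which reads can be split, so they are not 11 separate genes.

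Tph2, the neuronal enzyme that limits serotonin synthesis, came nearest. It ran from 22.6 through a median of 44.2 to 87.7 normalized counts in VEH, from 7.73 through 33.3 to 48.3 in PB, and from 25.6 through 48.0 to 61.2 in LEV animals. The PB values lay low, with 13 of 14 below the mean of the VEH pups of like code form, and overlapped the other groups. The log2 fold change was -0.56 (SE 0.19) in PB against VEH and -0.51 (SE 0.19) in PB against LEV, with adjusted p of 0.0736 and 0.107 by edgeR's test. Tph1, the peripheral and pineal form of the enzyme, and Slc6a4, which encodes the serotonin transporter, fell under the filter, at 0 to 27.3 and 0 to 45.5 counts. Which cells these counts came from was not tested. VEH animal 9 had the highest counts of both Slc6a4 and Tph2.

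Transcripts of the G proteins, effectors and partners of the receptors were also compared, and 0 of 30 tested were called in each of the 3 comparisons by edgeR. The 31 transcripts of this list in the table came from 27 genes, so the 30 are not 30 separate genes. Gnas, which encodes the stimulatory G protein, passed the adjusted p but not the fold limit in PB against VEH, at a log2 fold change of -0.11 (SE 0.03, edgeR adjusted p 0.0255), and in PB against LEV, at -0.15. Arrb1, an arrestin, did so in PB against LEV, at 0.24 (edgeR adjusted p 0.0208). The adenylyl cyclase Adcy9 was at -0.18 in PB against VEH and missed the threshold (edgeR adjusted p 0.0529).

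Markers of the cells and neighbouring tissues that a hippocampal dissection can hold were given the same comparison. In PB against VEH 3 of 37 transcripts were called, outside skeletal muscle, and 10 had an unadjusted p under 0.05 (0.605% and 20.2% of all transcripts). The called ones were Prkcd of the CA3 list, higher (0.35), and, of the thalamus and habenula list, Tcf7l2, higher (0.35), and Tac3, lower (-0.41). The authors count Tac3 among GABA neuron genes, so it is not a marker of neighbouring tissue alone. None of 7 CA1, 5 dentate granule cell, 6 general pyramidal neuron and 8 meninges and vessel wall transcripts was called. Fibcd1 of CA1, listed as 2 versions of 1 transcript (-0.22 and -0.21, edgeR adjusted p 0.0222 and 0.0285), and Nrgn (-0.29) and Camk2a (-0.26) of pyramidal neurons passed the adjusted p without reaching the fold limit. Of 18 skeletal muscle transcripts in the table, 3 passed the filter on low counts, so no count over them is read. The sum over all 18 ran from 115 through a median of 165 to 463 normalized counts in VEH animals. It ran from 68.6 through 131 to 162 in PB animals and from 109 through 159 to 574 in LEV animals. Acta1 was at 154 ± 43.6 in VEH and 109 ± 21.5 in PB animals (log2 fold change -0.44, edgeR adjusted p 0.0102). Atp2a1 was at 29.1 ± 31.3 and 3.43 ± 1.89, a level in PB animals near those of transcripts that fell under the filter. In LEV against VEH 0 of the 37 were called by edgeR (background 0%), with 4 at an unadjusted p under 0.05 (5.84% of all). The part of these markers in the receptor values was not tested, apart from the choroid plexus score.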

How the data were processed

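Hippocampal RNA of 42 pups was sequenced, 1 library per animal. After trimming adaptors and poor-quality bases, the authors mapped reads to rn6 with STAR 2.7.3a and assigned them to annotated transcripts in Partek by expectation maximization, and the deposited values are estimated counts per transcript, of which 13.7% are not whole. Reads shared by transcripts can thus be split between them, and the library kit named in the labels does not keep strand, so reads from antisense or overlapping genes cannot be told apart. A second deposited table of the authors' own comparisons (p-values, ratios and group means) was not used.

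Counts were rounded to whole numbers, scaled by TMM, filtered by edgeR's filterByExpr and tested in edgeR 4.0.16 (R 4.3.3) by the quasi-likelihood test with treatment and code form as terms. P-values were adjusted by Benjamini-Hochberg over 13062 transcripts, and calls needed an adjusted p under 0.05 and a fold of at least 1.25. DESeq2 1.42.0 was an alternative, as were other filters, scalings, sample sets and covariates and the omission of each animal. Normalized counts are rounded counts scaled to a common effective library size, and intervals are 95% intervals from the fit. The labels state that each treatment group took 1 pup per litter, but not which pups were littermates. The receptors, the gene lists and the tests were chosen with earlier results of these data known. All receptors were named, 3 transcripts most like each were ranked by Spearman's rho, and genes of other lists were named by smallest p.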

Additional observations from a re-analysis of the deposited data

Results flagged for a closer look

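Of 60 sets of receptor values within treatment and code form, 6 had an animal set apart from the rest of its set by more than Dixon's 95% limit, and chance alone flags about 1 set in 20. In the VEH one-letter animals Htr1a was 95.5 normalized counts in animal 9, where the next lowest was 159 (n = 7). Htr2a was 47.4 in PB animal 11, where the next highest was 29.1 (n = 8). Htr3a was 67.7 in PB animal 2, where the next highest was 49.1 (n = 6). Htr6 was 59.3 in PB animal 14, where the next was 41.02 (n = 8), and 23.9 in LEV animal 8, where the next lowest was 32.5 (n = 8). Htr7 was 80.3 in VEH animal 4, where the next highest was 63.8 (n = 6).

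The VEH animal that the labels exclude entered the groups only in the alternative with all 14 VEH animals, and 3 receptors stood above the 13 other VEH animals in it. Htr1a was 196 normalized counts (highest of the others 182), Htr1b was 179 (highest 117) and Htr6 was 71.0 (highest 53.2). Htr4 stood below them, at 12.5 (lowest of the others 17.8).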

How the results depend on the processing

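Across 404 alternative values of the 30 receptor fold changes between treatments, 383 kept their direction and 0 were called. The alternative without the fold limit changed only the rule for a call, so its 30 fold changes could not change direction. Leaving out 1 animal at a time gave 0 to 1 called receptors in PB against VEH and 1 to 2 receptors related to the choroid plexus level. The direction changed in these alternatives, for receptors that were not called. In one-letter codes alone the log2 fold change was 0.096 for Htr1b, -0.23 for Htr1f, 0.094 for Htr3a and 0.054 for Htr4 in PB against VEH, and 0.087 for Htr1b, 0.21 for Htr4, -0.12 for Htr5b and 0.0079 for Htr7 in LEV against VEH. In two-letter codes alone it was -0.15 for Htr2c and -0.11 for Htr3a in LEV against VEH, and 0.23 for Htr1f, 0.049 for Htr2a, 0.23 for Htr2c, 0.0016 for Htr3a, 0.017 for Htr4, -0.14 for Htr6 and 0.044 for Htr7 in PB against LEV. Htr2c turned to -0.096 (PB) and -0.00066 (LEV) with the choroid plexus score as a covariate. Htr3a in PB against VEH was 0.018 with all 14 VEH animals and 0.0028 with the 2 groups alone.

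With 1 animal left out, 46 of 1230 receptor fold changes between treatments changed direction. In PB against VEH the fits ran from -0.049 to 0.017 for Htr1b, -0.051 to 0.11 for Htr1f, -0.023 to 0.11 for Htr2c and -0.053 to 0.042 for Htr3a. In LEV against VEH they ran from -0.088 to 0.022 for Htr1b, -0.011 to 0.080 for Htr3a and -0.025 to 0.041 for Htr5b. In PB against LEV they ran from -0.032 to 0.074 for Htr1b, -0.13 to 0.014 for Htr1f, -0.10 to 0.016 for Htr2a, -0.088 to 0.0063 for Htr3a and -0.074 to 0.027 for Htr7.

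Counts over all transcripts moved more. The 79 calls of PB against VEH were 17 in two-letter codes, 168 in one-letter codes, 704 without the fold limit, and 52 (without PB animal 7) to 113 (without PB animal 5) with 1 animal left out. The 0 calls of LEV against VEH were 5 with DESeq2, 1 without a filter, 1 with a mean of at least 50 counts, 5 with a treatment by code form term, 170 in two-letter codes, 6 in one-letter codes, 1 without the fold limit, and 0 to 4 with 1 animal left out. The 76 calls of PB against LEV were 36 with DESeq2, 24 in two-letter codes, 34 with all 14 VEH animals, 581 without the fold limit, and 39 to 102 with 1 animal left out. The cause was not tested. Receptors with a mean under 50 counts gave no value under that filter. Other scaling by DESeq2's size factors shifted the median of all transcripts by under 0.01. Both scalings hold that median near 0, so the small shift does not show how the receptors depend on scaling. The nearest rho to Htr2c was 0.72 in place of 0.88 once the choroid plexus score was removed, an alternative chosen after seeing the data.

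Animals share numbers across groups in the labels, but same-numbered animals did not deviate together: their correlations had medians of 0.04 between PB and VEH animals, -0.04 between LEV and VEH animals and 0.01 between the drug groups, and 3 of 13, 3 of 13 and 4 of 14 pairs were over 0.1. With the animal number as a replicate block, 0 receptors were called in each comparison, and 55, 0 and 63 transcripts were called in all. Htr2a then had a log2 fold change of -0.28 in PB against VEH.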
